A study of Rattus norvegicus with 4 samples.

Results

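The genes described here encode CPEB proteins and the partners with which they act on mRNA tails. Members were found by exact gene symbol in the platform's probe annotation. Of 8 genes looked up, 5 had a probe set, namely Cpeb1, Cpeb4, Sympk, Ngdn and Eif4enif1, among 14497 genes with 1 symbol. Each had 1 probe set, so no choice between probe sets was needed. Cpeb2, Cpeb3 and Parn had no probe set under their symbol and were not analysed here.

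The values come from poly(A) RNA of primary hippocampal neurons cultured from rat embryos. The 4 cultures had received either shRNA against Gld2 (2 cultures) or a scrambled shRNA (2 cultures), and 1 array was run for each. Gld2, whose gene symbol is Tent2, is a cytoplasmic poly(A) polymerase. The title and design text give the purpose as profiling poly(A) RNA after its knockdown. All 4 cultures thus carried an shRNA, and a culture without shRNA was not analysed here. The labels name the shRNAs only by target and do not give a vector, a promoter or the time of treatment. Nor do they state that the cultures are separate preparations, so the p-values reflect only the spread among these 4, part of which may be technical. Below, knockdown cultures are those with Gld2 shRNA and controls those with scrambled shRNA. The RNA had been released by heat from poly(U) Sepharose before labelling. A lower value can therefore mean fewer transcripts, less RNA recovered because tails were shorter, or fewer cells with the transcript, and these cannot be told apart here.

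CPEB proteins bind a short element in the 3′ untranslated region of certain mRNAs and hold them silent until a signal arrives. In the best known complex, Cpeb1 sits on the mRNA, symplekin acts as the scaffold, the polymerase Gld2 lengthens the tail and the deadenylase Parn shortens it. Neuroguidin (Ngdn) and 4E-T (Eif4enif1) bind the cap-binding protein eIF4E and keep translation low, and in hippocampal neurons such complexes have been described in dendrites and near synapses.

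The 4 arrays had median log2 values of 8.41 to 8.48, and Pearson's r across all 28826 probe sets was 0.996 and 0.997 within the groups and 0.989 to 0.993 between them. The number of arrays limits the precision. Tent2 fell from 10.73 and 10.67 in the controls to 9.50 and 9.35 in the knockdown cultures, or 41.1% of control (log2 difference -1.28, adjusted p = 0.000754 by limma, with the Benjamini-Hochberg method over 14497 genes, as for every adjusted p below). The neuron markers Map2, Rbfox3, Tubb3 and Syn1 lay between 11.93 and 13.06 on every array, so neuronal RNA was present, and the astrocyte marker Gfap lay between 13.18 and 13.30, so the cultures also held astrocyte RNA. Compared with the controls, Gld2 shRNA replicate 2 lay farther away than replicate 1, with median absolute log2 differences of 0.172 and 0.158 from the 2 controls against 0.109 and 0.105.

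After Gld2 knockdown the measured level was 77.3% of control for Cpeb1, 80.9% for Cpeb4 and 88.1% for Ngdn, while Sympk and Eif4enif1 were at 96.2% and 96.9%. None of the 5 genes passed the adjusted threshold of 0.05 in limma, in either direction. Over all genes, 4.10% passed that threshold, 2.41% lower and 1.69% higher. At an unadjusted p under 0.05, Cpeb1, Cpeb4 and Ngdn were lower and 0 members were higher. That is 3 of 5 lower and 0 of 5 higher, against 16.2% and 9.24% of all genes. A linear model without moderation called 0 of the 5, but it called only 1 gene of 14497 and not Tent2, so its 0 says nothing of the members.

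**Figure D1:**
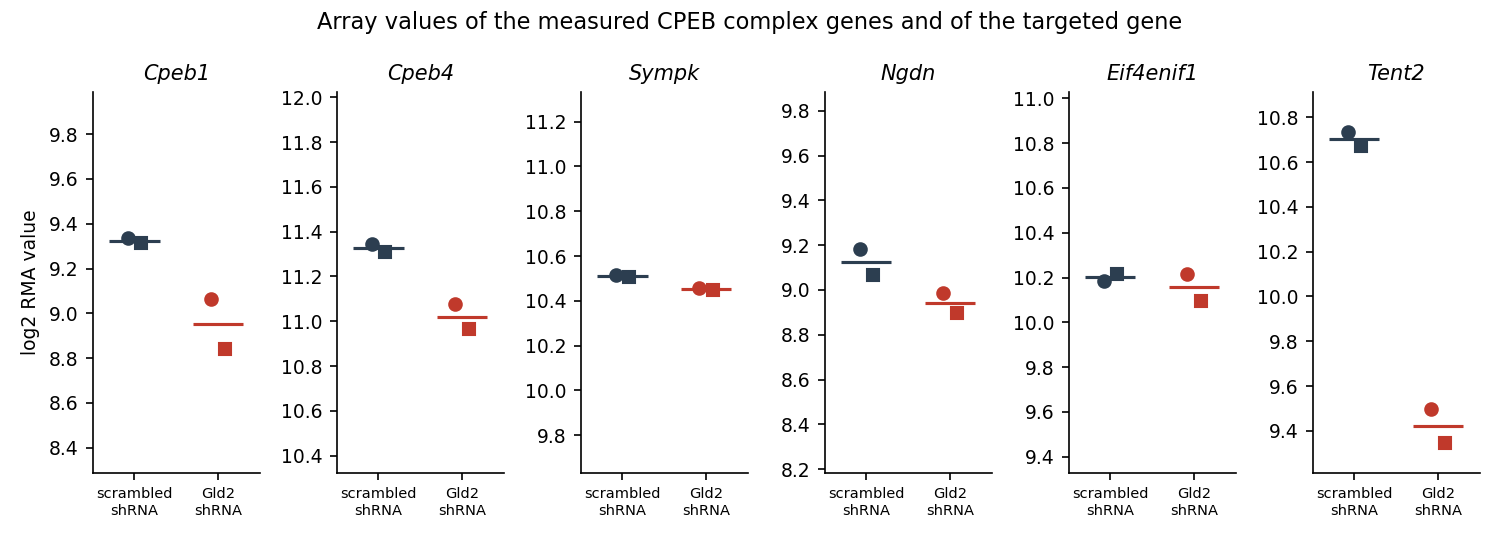
Log2 RMA values (vertical axes, each spanning the same range of 1.7 log2 units) of the 5 measured genes and Tent2 in the scrambled shRNA cultures (dark) and the Gld2 shRNA cultures (red). Circles are replicate 1, squares replicate 2 and bars the means, and the groups separate for every gene but Eif4enif1, most widely for Tent2.

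Cpeb1 encodes the RNA-binding protein of the complex in which Gld2 works. Its log2 RMA value (probe set 10723240) was 9.06 and 8.84 after knockdown, against 9.33 and 9.31 in the controls. Both knockdown cultures lay below both controls, and the knockdown cultures differed from each other far more than the controls did. The group means were 8.95 ± 0.157 (SD, n = 2) and 9.32 ± 0.0155 (SD, n = 2). The log2 difference was -0.37 (SE 0.0873, 95% interval -0.59 to -0.16), or 77.3% of control. Limma's adjusted p was 0.0768. Of all 14497 genes, 406 had a lower difference. Against the control mean, replicate 1 was at -0.26 and replicate 2 at -0.48.

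Cpeb4 encodes a CPEB protein of the branch that also holds Cpeb2 and Cpeb3, whose RNA recognition differs from that of Cpeb1. Its probe set, 10741814, read 11.08 and 10.97 after knockdown, against 11.35 and 11.31 in the controls. The groups did not overlap, and the gap between them was wider than the spread within either. Means were at 11.02 ± 0.0771 (SD, n = 2) after knockdown and 11.33 ± 0.0268 (SD, n = 2). Cpeb4 was at 80.9% of control (log2 difference -0.31, SE 0.0676, 95% interval -0.47 to -0.14, limma's adjusted p = 0.0675). Its cultures deviated from the control mean by -0.25 and -0.36. The log2 difference of Cpeb1 was 0.07 units below that of Cpeb4, and the intervals of the 2 genes overlapped over most of their length, so these data do not separate the sizes of their differences. With 2 cultures a group, the smallest p that an exact two-sided permutation test could give is 0.333, and no such test of the difference between genes was run.

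Whether Cpeb1 and Cpeb4 count as changed depended on the choice of fit. Both stayed below 0 in every alternative that tested them, but most alternatives could not turn the sign. Only cyclic loess, median centring and removal of a trend with gene length could have done so. The others kept the same difference or left out 1 culture, and both knockdown cultures lay below both controls. Both passed when limma's prior variance was let follow the level (adjusted p = 0.00942 for Cpeb1 and 0.000819 for Cpeb4) and with each array centred on its median (0.00304 and 0.0117). They also passed when genes under the 25th percentile of level were left out (0.0369 and 0.0302, limma). Without Gld2 shRNA replicate 1 both passed (0.0202 and 0.0297 in limma), and without Gld2 shRNA replicate 2 neither did (0.146 and 0.157), with log2 differences of -0.48 and -0.36 in the first case and -0.26 and -0.25 in the second. The gap between those fits follows the values of the cultures, since both take the spread from the controls. In the fits where both passed, many more of all genes passed than in the setting used here. The share of all genes tested that was lower past the threshold, 2.41% in the setting used here, was 11.1% with the prior that follows the level, 9.43% with median centring, 8.73% with the percentile filter, 9.70% without Gld2 shRNA replicate 1 and 0.683% without Gld2 shRNA replicate 2. Over all alternatives the adjusted p ran from 0.00304 to 0.405 for Cpeb1 and from 0.000819 to 0.407 for Cpeb4.

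**Figure D2:**
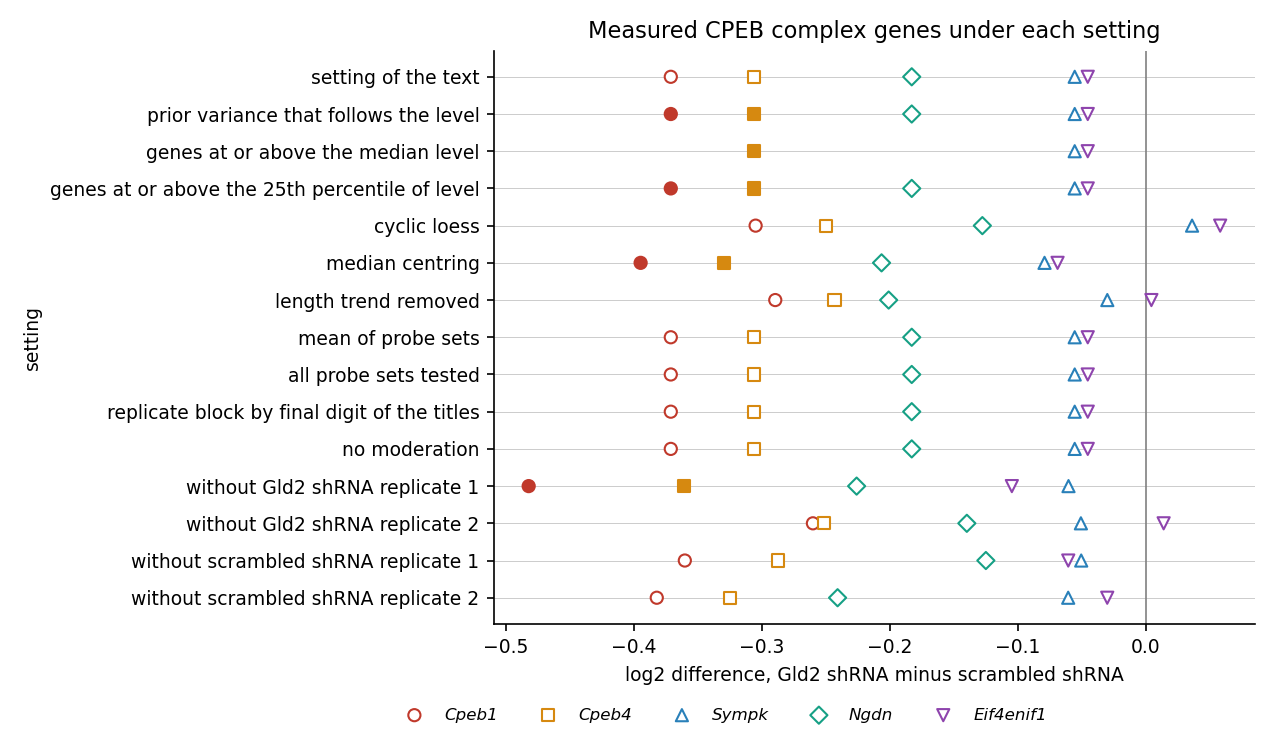
Log2 differences (horizontal axis) of the 5 measured genes in the setting used here and in 14 alternatives (vertical axis), filled where the adjusted p was under 0.05. Filled points appear for Cpeb1 and Cpeb4 only, both lie left of 0 in every setting that tested them, and Sympk and Eif4enif1 lie near 0 with a change of side in some. For Cpeb1 and Cpeb4 only cyclic loess, median centring and removal of the length trend could change the side.

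Both Cpeb genes are long, with genomic spans of 108111 bp for Cpeb1 and 61978 bp for Cpeb4 in RefSeq assembly GRCr8, which put them in the same decile of gene length, the ninth. The median log2 difference of all genes in that decile was -0.09. With a trend of the values with gene length removed from each array, the differences became -0.29 for Cpeb1 and -0.24 for Cpeb4 (limma's adjusted p = 0.0889 and 0.0859). Neither passed in that setting.

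The 250 bases upstream of an annotated start of Cpeb1 and Cpeb4 are shown because these are the members furthest below their controls. They are RefSeq bases of build GRCr8, 5′ to 3′ on the strand of the gene, minus in both cases. Each start is that of 1 transcript and lies inside the annotated gene, 1125 bases from its outer end for Cpeb1 and 660 for Cpeb4. The Cpeb1 window is chr1:144816264-144816513 and the Cpeb4 window chr10:16283589-16283838. Capitals mark matches, on either strand, to the GC box GGGCGG, the E-box CACGTG or the TATA box TATAAA.
Cpeb1: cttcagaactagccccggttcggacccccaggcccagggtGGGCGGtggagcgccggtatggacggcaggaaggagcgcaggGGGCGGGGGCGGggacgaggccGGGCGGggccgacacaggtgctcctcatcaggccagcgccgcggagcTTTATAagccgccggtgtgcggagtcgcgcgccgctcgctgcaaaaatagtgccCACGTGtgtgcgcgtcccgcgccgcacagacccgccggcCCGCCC
Cpeb4: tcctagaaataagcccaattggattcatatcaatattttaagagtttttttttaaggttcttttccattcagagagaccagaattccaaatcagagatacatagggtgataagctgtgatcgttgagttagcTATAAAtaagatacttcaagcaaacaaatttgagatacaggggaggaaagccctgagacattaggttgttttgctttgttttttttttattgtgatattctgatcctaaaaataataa
The Cpeb1 window is rich in G and C and held 5 GC boxes, 1 E-box and 1 TATA box, while the Cpeb4 window is rich in A and T and held 1 TATA box. Among all 33469 windows of this length in the RefSeq table, 30.5% held a GC box, 5.59% an E-box and 12.9% a TATA box. The cAMP response element TGACGTCA, its core TGACG and the interferon-stimulated response element had no match in either window, against 1.59%, 18.2% and 3.41% of all windows. The TATA box was the only one of these motifs with a match in both windows, on opposite strands. It reads TTTATA, the reverse complement, in the Cpeb1 window and TATAAA in the Cpeb4 window. A match is a description of these bases, not a binding site.

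Ngdn encodes neuroguidin, a protein reported to bind both CPEB and eIF4E and to hold translation down. Its log2 RMA value (probe set 10780268) was 8.99 and 8.90 after knockdown, against 9.18 and 9.07 in the controls. The knockdown cultures lay below both controls, by only 0.0819 log2 units at the nearest. The knockdown mean was 8.94 ± 0.0609 (SD, n = 2) and the control mean 9.13 ± 0.0819 (SD, n = 2). Ngdn was at 88.1% of control (log2 difference -0.18, SE 0.0721, 95% interval -0.36 to -0.0063, limma's adjusted p = 0.187). Unlike the Cpeb genes it is short, with a span of 7363 bp, in a length decile with a median difference of 0.03. With the length trend removed its difference was -0.20.

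Eif4enif1 encodes 4E-T, which binds eIF4E, moves it between nucleus and cytoplasm and gathers silenced mRNAs in P-bodies. Its log2 RMA values (probe set 10773663) were 10.21 and 10.10 after knockdown, against 10.19 and 10.22 in the controls. The groups overlapped, with Gld2 shRNA replicate 1 between the controls. The mean after knockdown was 10.16 ± 0.0838 (SD, n = 2) and that of the controls 10.20 ± 0.0215 (SD, n = 2), and the log2 difference was -0.045 (SE 0.0686, 95% interval -0.21 to 0.12, limma's adjusted p = 0.708), or 96.9% of control. The interval leaves room for a fall as large as that measured for Ngdn. The sign turned to 0.058 with cyclic loess, to 0.0043 with the length trend removed and to 0.014 without Gld2 shRNA replicate 2.

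Sympk encodes symplekin, the scaffold that links CPEB to the cleavage and polyadenylation specificity factor. Probe set 10704682 read 10.46 and 10.45 (log2 RMA) after knockdown, against 10.52 and 10.51 in the controls. The groups did not overlap, since the cultures of each group were almost equal, but the gap was 0.0457 log2 units. Knockdown cultures averaged 10.45 ± 0.00685 (SD, n = 2) and controls 10.51 ± 0.00719 (SD, n = 2). The log2 difference was -0.056 (SE 0.0588, 95% interval -0.20 to 0.089, limma's adjusted p = 0.585), or 96.2% of control. Cyclic loess turned its sign, to 0.036.

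By the size of the difference, the members ran from Cpeb1 through Cpeb4 and Ngdn to Sympk and Eif4enif1. In 4 of the 5 both knockdown cultures lay below both controls, against 34.5% of all genes, and in 0 both lay above, against 24.0%. All 5 differences were below 0 in the setting used here, against 53.8% of all genes, but cyclic loess left 3 below 0, and removal of the length trend or of Gld2 shRNA replicate 2 left 4. The median of the 5 was -0.18, against -0.02 over all genes. Genes in the same deciles of level as the members had lower medians than all genes. These were -0.06 in the decile of Cpeb1 and Ngdn, -0.05 for Cpeb4, -0.08 for Sympk and -0.10 for Eif4enif1. The differences of Sympk and Eif4enif1 lay above the medians of their own deciles. None of the 5 reached 1.5-fold, while 0.517% of all genes were at least 1.5-fold lower and 0.938% at least 1.5-fold higher at an unadjusted p under 0.05 (limma). In replicate 1 the median of the 5 against the control mean was -0.14 and in replicate 2 it was -0.23, and replicate 2 had the lower value for each gene.

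**Figure D3:**
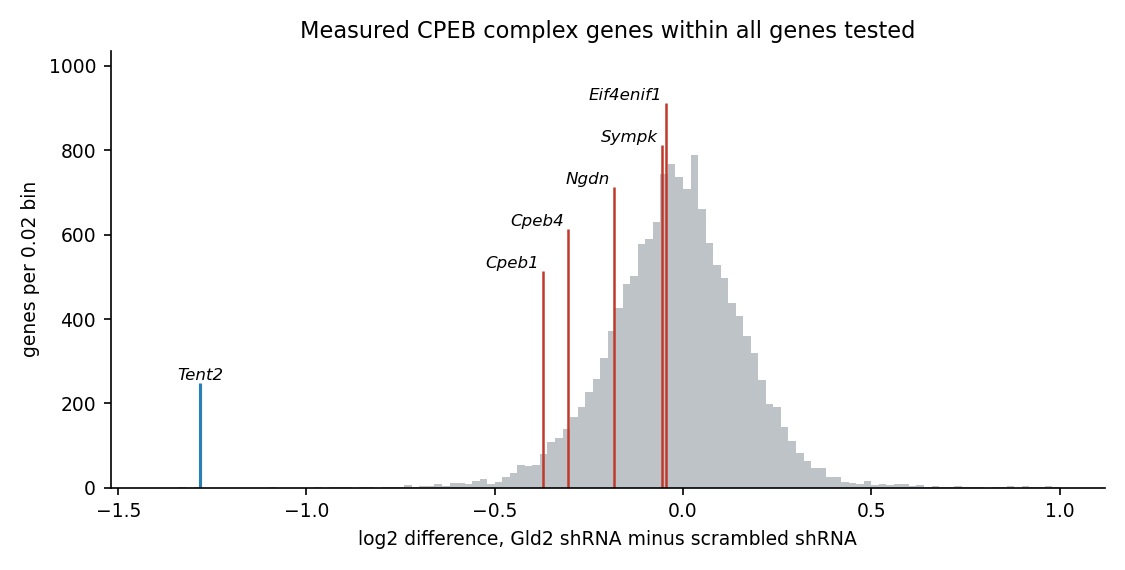
Histogram of the log2 differences of 14497 genes in bins of 0.02, with the 5 measured CPEB complex genes (red lines) and Tent2 (blue line). The horizontal axis leaves out 75 genes beyond the range from -1.4 to 1, and Cpeb1 and Cpeb4 lie in the lower flank at -0.37 and -0.31, far from Tent2 at -1.28.

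The summed signals of the marker lists of cell types shifted little, though some lists separated by group. The markers Cnp and Gja1 passed the adjusted threshold. The summed signal of 12 neuron markers was 16.27 to 16.28 on the log2 scale in the Gld2 shRNA cultures and 16.31 to 16.33 in the controls, with 0 of 12 past the threshold in limma and 3 lower at an unadjusted p under 0.05. Over all genes, 4.10% passed the threshold, and 16.2% were lower and 9.24% higher at that unadjusted p. Sums of 8 microglia markers were 10.88 to 10.97 against 10.78 to 10.85, with 0 past the threshold and 1 higher at an unadjusted p under 0.05. Those of 8 oligodendrocyte markers were 13.10 to 13.17 against 12.99 to 13.02. There 1 of 8 passed, namely Cnp, an enzyme of myelinating cells, which rose by 0.54 (limma's adjusted p = 0.0169). In that list Mbp, a myelin protein gene, was at -0.29 and did not pass, and 1 marker was lower and 1 higher at an unadjusted p under 0.05. The 8 astrocyte markers had sums of 15.39 to 15.44 against 15.40 to 15.42. Of these 1 passed, the gap junction gene Gja1, which fell (-0.39, limma's adjusted p = 0.0351). Both knockdown cultures lay above both controls in 4 of the 8 and below both in 2, against 24.0% and 34.5% of all genes. The list median was 0.063. The 7 markers of dividing cells had sums of 11.10 to 11.17 against 11.08 to 11.17, with 0 past the threshold and, at an unadjusted p under 0.05, 1 lower and 1 higher. No marker is at 0 on this scale. The part of these shifts in the values of the CPEB complex genes was not tested.

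The genes with patterns most like those of the Cpeb genes did not pass either, which follows largely from the way they were picked. Likeness was the root mean square distance over the 4 arrays between log2 values centred on each gene's own mean. A near gene therefore has nearly the same group difference and spread by construction. For Cpeb1 the nearest genes were Inpp5a, an inositol polyphosphate phosphatase (distance 0.00742, log2 difference -0.38), and Dnajc27, a J-domain protein with a Rab-like part (0.00757 and -0.36). For Cpeb4 they were Tnr, the extracellular matrix glycoprotein tenascin-R (0.00682 and -0.31), and the zinc finger gene Zfp951 (0.00702 and -0.31). Among the members themselves, Sympk and Eif4enif1, both with differences near 0, were the nearest pair (0.0414). Cpeb1 and Cpeb4 followed (0.0518), and Cpeb1 and Sympk were the farthest apart (0.175).

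The wider machinery around CPEB was described with 5 gene lists. Together they held 82 measured genes besides Tent2, of which 3 fell, 1 rose and 78 did not pass, a share near the 4.10% of all genes. Their median difference was -0.08, against -0.18 for the 5 members. At an unadjusted p under 0.05 in limma, 14 of the 82 were lower, a share near the 16.2% of all genes. At that p 4 were higher, against 9.24% of all genes.

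Among cap-binding and repression partners, which act beside neuroguidin and 4E-T, 2 of 17 fell, 0 rose and 15 did not pass, against 2.41% of all genes that fell. At an unadjusted p under 0.05 in limma, 6 of the 17 were lower and 0 higher, against 16.2% and 9.24% of all genes. Cyfip2, a partner of the fragile X protein, had values of 11.69 and 11.65 against 12.27 and 12.22 in the controls and fell by 0.57 (limma's adjusted p = 0.00926). Fmr1, which encodes the fragile X protein, an RNA-binding repressor of translation, had 9.23 and 9.11 against 9.61 and 9.58 and fell by 0.42 (adjusted p = 0.0356, limma). In both genes the knockdown cultures lay below both controls. Ddx6, a helicase of P-bodies that binds 4E-T, had a difference of -0.27 and did not pass (adjusted p = 0.0768, limma).

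Among other deadenylases, their relatives and subunits of their complexes, 1 of 18 fell, 0 rose and 17 did not pass, against 2.41% of all genes that fell. At an unadjusted p under 0.05 in limma, 5 were lower, against 16.2% of all genes. Toe1, a nuclear deadenylase, had 9.08 and 8.92 against 9.63 and 9.60 and fell by 0.61 (limma's adjusted p = 0.0156). By p, Pde12 (-0.33) and Cnot6l (-0.45) came next and did not pass, although Cnot6l did with the final digits of the titles as a replicate block (adjusted p = 0.0421, limma, where its alternatives span 0.000433 to 0.404). The factors of the cleavage complex, to which symplekin belongs, had 0 of 14 past the threshold in limma. At an unadjusted p under 0.05, 2 of the 14 were lower, against 16.2% of all genes. Those 2 were Cpsf6 and Cstf3, both at -0.19, while Ssu72 was at 0.13.

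Among the poly(A) polymerases and poly(A) binding proteins other than Tent2, 1 of 12 rose, 0 fell and 11 did not pass, against 1.69% of all genes that rose. At an unadjusted p under 0.05 in limma, 1 of the 12 was lower and 2 were higher, against 16.2% and 9.24% of all genes. Tent5a, of a family of noncanonical poly(A) polymerases, had 9.32 and 9.27 against 8.74 and 8.60 and rose by 0.62 (limma's adjusted p = 0.0123). Its relative Tent5b was at 0.33 and Paip1, a partner of the poly(A) binding protein, at -0.17, neither past the threshold. With the mean of its 2 probe sets, Tent5b was at 0.19. Of 21 regulators and cofactors of CPEB, 0 passed in limma, with 0 lower and 2 higher at an unadjusted p under 0.05, against 16.2% and 9.24% of all genes. Those 2 were Zar1 (0.29) and Nanos3 (0.27), while Ppp1ca was at 0.14. Leaving out either control ended all 4 calls, in fits whose spread comes from the knockdown cultures alone, and without Gld2 shRNA replicate 2 the counts were 2 lower and 1 higher.

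**Figure D4:**
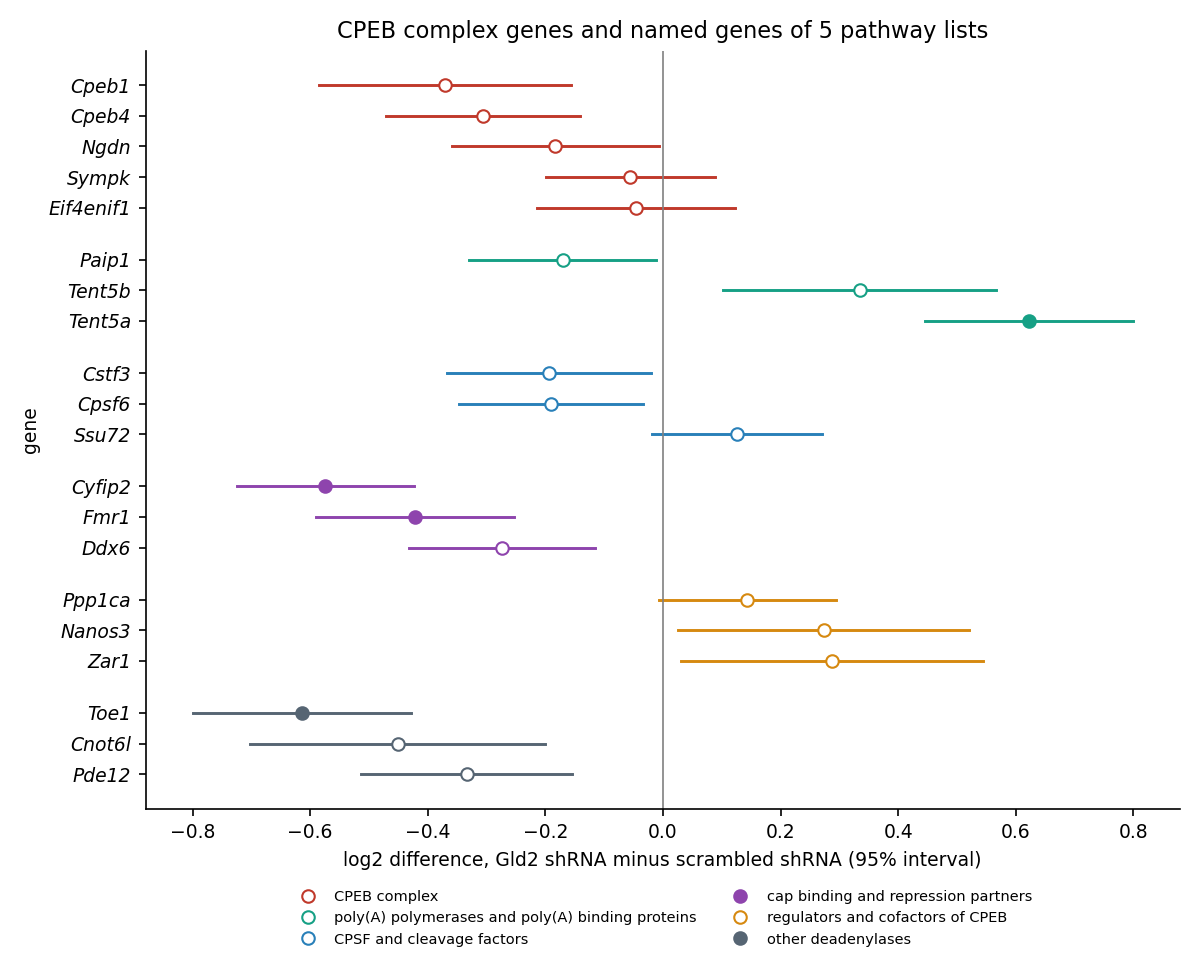
Log2 differences with 95% confidence intervals (horizontal axis) of the 5 measured CPEB complex genes and of up to 3 genes of each of 5 pathway lists with the smallest p. Filled points passed an adjusted p of 0.05, namely Tent5a, Cyfip2, Fmr1 and Toe1, and the intervals of Cpeb1, Cpeb4 and Ngdn lie below 0 with open points.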

How the data were processed

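Poly(A) RNA of 4 cultures was measured on whole-transcript Affymetrix arrays, after amplification and biotin labelling with WT kits from Ambion and Affymetrix per the labels' protocols. The authors made the deposited log2 values with RMA and affy, per the submitters' processing notes. For versions, settings and probe set definition, nothing is given in the sources used here. That the unit is log2 was inferred from the range, 3.23 to 14.3. RMA brings arrays to a common distribution, so a shift of all genes together cannot be seen.

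Of 28826 probe sets, the platform annotation gave 1 symbol to 15209, several to 306 and none to 13311; the 15209 give 14497 genes, each represented by the probe set with the highest mean over the arrays. Groups were compared with lmFit and eBayes of limma 3.58.1 (R 4.3.3) by two-sided tests, adjusted by Benjamini-Hochberg over all 14497 genes, on 2 residual degrees of freedom. Differences are Gld2 shRNA minus scrambled shRNA. The fit was tested on simulated data with independent noise and variances drawn from limma's own fitted prior. That checks the code, not whether the model suits these arrays. The named genes were the members, Tent2, up to 3 genes with the smallest p of each pathway list and the 2 genes most like each Cpeb gene, without unnamed gene models and smell receptors. Markers are named as a check of the tissue. The members, lists and motifs were chosen with earlier results of these data known. Alternatives were other prior variances, level filters, scalings, probe set rules, a replicate block, no moderation, leaving out each culture and a count by fold. Gene length is the genomic span in GRCr8, missing for 31 genes, and the length trend is a lowess curve with a span of 0.3. No scan dates or detection calls were used here, so batches and signal over background were not tested.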

Additional observations from a re-analysis of the deposited data

How the results depend on the processing

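Cpeb1, Cpeb4 and Ngdn kept values below 0 in every alternative that tested them, from -0.48 to -0.26, -0.36 to -0.24 and -0.24 to -0.12. For these genes only cyclic loess, median centring and removal of the length trend could have turned the sign. Sympk turned to 0.036 with cyclic loess, and Eif4enif1 turned to 0.058 with cyclic loess, 0.0043 with the length trend removed and, over the fits without 1 culture, ran from -0.10 to 0.014, above 0 without Gld2 shRNA replicate 2. None of these values passed. The count of members lower past the threshold, 0 in the text, was 2 (Cpeb1 and Cpeb4) with a prior variance following the level, with median centring and with the 25th percentile as a floor. It was 1 (Cpeb4) with genes under the median left out, a filter that removes Cpeb1 and Ngdn. Of the 7249 genes tested with that filter, 17.8% were lower past the threshold. Without 1 culture it ran from 0 to 2, the latter without Gld2 shRNA replicate 1. Members higher past the threshold numbered 0 throughout.

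Pathway genes lower past the threshold, 3 in the text, numbered 11 with the prior variance following the level, 10 with the median filter, 7 with the 25th percentile filter, 8 with median centring, 1 with all probe sets tested and 0 without moderation, and from 0 to 6 without 1 culture. Those higher, 1 in the text, numbered 3, 0, 1, 2, 1 and 0 in the same order, and from 0 to 5 without 1 culture. Over all genes tested, the shares lower were 11.1%, 17.8%, 8.73%, 9.43%, 0.345% and 0% in that order, against 2.41% in the text. The shares higher were 4.28%, 4.26%, 3.2%, 3.85%, 0.876% and 0.0069%, against 1.69%. The larger pathway counts thus came from fits in which more of all genes passed, and a difference from all genes was not tested. Tent2 lost its call without moderation (-1.28, adjusted p = 0.221 by a linear model per gene). Over all genes 245 were higher and 349 lower; median centring gave 558 and 1367, cyclic loess 370 and 378, removal of the length trend 258 and 267, the prior following the level 621 and 1611, and the fits without 1 culture 82 to 1283 and 3 to 1406, and the causes were not tested. The level filters tested fewer genes, with 309 higher and 1287 lower of 7249 for the median filter and 348 and 949 of 10873 for the 25th percentile filter. With the final digit of the titles as a replicate block, 233 were higher and 332 lower and 4 pathway genes lower, the call gained being Cnot6l, and 0 members passed (Cpeb1 at an adjusted p of 0.0619, limma). The correlation between same-numbered cultures of their deviations from the group means was 0.143 over genes, and the labels do not say that the digits pair cultures.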
